A study of Mus musculus with 18 samples.

Results

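Skin of lncKO mice, which lack MIR205HG, a long noncoding RNA, was set against skin of miR-205 KO mice, which lack the microRNA encoded within the same locus. The comparison holds 6 of the 18 arrays of the series, chosen by tissue and genotype in the sample labels: lncKO skin arrays 4, 5 and 6, against miR-205 KO skin arrays 7, 8 and 9. The remaining arrays hold wild-type skin and the same 3 genotypes in pituitary, with 3 arrays in each group. All mice are labelled C57BL/6, female and 5 to 6 weeks old, and the extraction text describes frozen ear tissue. The labels say neither how the alleles were made nor whether either deletion also removes the other transcript, and they do not name separate mice for the arrays of a group. The p-values therefore reflect the scatter among these arrays alone, and that scatter may be technical. The question was whether loss of the host RNA and loss of the microRNA leave skin with different gene expression.

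MicroRNAs are short RNAs that guide silencing complexes to messenger RNAs through pairing of their seed, bases 2 to 8. miR-205 is abundant in skin and other stratified epithelia, where it is known for promoting PI3K and AKT signalling in hair follicle progenitors by limiting inhibitors of that pathway. Its precursor is embedded in the MIR205HG transcript, which as a long noncoding RNA can act without being processed into the microRNA. A direct target of the microRNA would be released from silencing wherever the microRNA is missing. Both mature arms are shown because they are what the miR-205 KO label names, with the seed in capitals, from RefSeq (GRCm38.p6), at chr1:193507503-193507524 and chr1:193507467-193507488 on the minus strand.
mmu-miR-205-5p: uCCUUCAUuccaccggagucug
mmu-miR-205-3p: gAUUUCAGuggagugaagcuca
No probe set named here reads the host RNA or the microRNA (0 probe sets), so neither deletion could be checked on these arrays and the genotypes are those of the labels.

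Each array gave an intensity for 22206 probe sets, of which 19572 carry a gene symbol and were tested. The median intensity lay between 82 and 89 on the 6 arrays, and 24.1% to 24.2% of probe sets were at or below 16, near the bottom of the scale. The tissue label held up against its markers: Krt5 and Krt14, keratins of basal keratinocytes, lay at 73952 to 76776 and 131903 to 168942 in lncKO skin, against 74513 to 88378 and 126500 to 135821 in miR-205 KO skin. Acan, the core proteoglycan of cartilage, lay at 9429 to 18981 in lncKO skin, against 11962 to 17017 in miR-205 KO skin. Kdm5d, a gene of the Y chromosome, lay at 6 to 8 on these 6 arrays, which are labelled female.

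The 2 kinds of knockout skin had closely similar profiles. No probe set passed an adjusted p of 0.05 in limma's moderated test (0.0% of those tested), and the lowest adjusted p was 0.0827. A fit of all 18 arrays, which takes the spread from every group, called 6 (Ctse, Tnnt2, Efcab7, Cyp2g1, Dio2 and Tmem242), and a fit of the 9 skin arrays called 0. An unadjusted p under 0.05 was reached by 742 probe sets (3.79%), 382 higher in lncKO (1.95%) and 360 lower (1.84%). The 3 arrays of one group lay entirely above those of the other for 1432 probe sets (7.32%), 704 higher in lncKO (3.6%) and 728 lower (3.72%). The difference was 2-fold or more for 56 probe sets, 28 higher in lncKO and 28 lower. Over all probe sets the median log2 difference, lncKO minus miR-205 KO, was -0.0078 and the median absolute difference 0.1651, with a median SE of 0.2433. For 17107 probe sets (87.4%) the 95% interval of the difference lay within 2-fold in both directions, and for 9750 of the 11045 (88.3%) with a mean log2 intensity of 6 or more in a group. In the remainder the interval reached beyond 2-fold. Where it also held smaller differences, this number of arrays could not bound the difference to 2-fold. For Ctse the interval lay wholly beyond 2-fold.

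The arrays did not sort by genotype. Pearson correlations of log2 intensities across genes, which are not independent replicates, were 0.9862 to 0.9908 within lncKO, 0.9894 to 0.9927 within miR-205 KO and 0.9881 to 0.9924 between the knockouts. Of the 6 arrays, 3 had their closest partner in their own group, and these were the miR-205 KO arrays. Each lncKO array was closest to a miR-205 KO array. The split into 2 genotypes took 18.8% of the variance of the 6 arrays, and genotype is 1 of the 5 degrees of freedom among 6 arrays. The same split took 30.8% in pituitary. The first principal component (28.5% of the variance) set lncKO 5 against lncKO 4, at scores of 41.6 and -34.3, and the second (22.1%) set miR-205 KO 9, at 41.1, apart from the rest. Summed markers of skeletal muscle moved with the first of these: their mean log2 level was 11.63, 13.12 and 12.14 in lncKO arrays 4, 5 and 6, and 12.27, 12.02 and 12.77 in miR-205 KO arrays 7, 8 and 9. Their part in the spread was not tested.

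**Figure D1:**
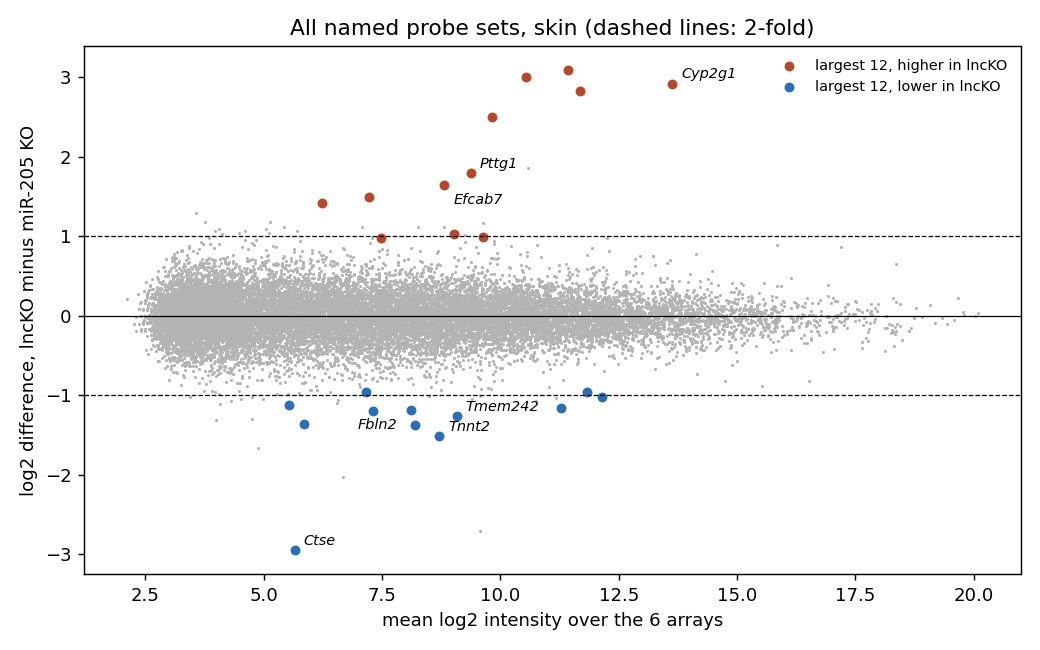
Log2 difference between lncKO and miR-205 KO skin (vertical axis) against the mean log2 intensity over the 6 arrays (horizontal axis) for the 19572 named probe sets; coloured points are the 12 largest differences in each direction among those that met the naming rule. Nearly all points lie between the dashed lines at 2-fold, and the red points include a cluster near 3 on the log2 scale.

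The genes described next are the largest differences among those with an unadjusted p under 0.01, no overlap between the groups' arrays and a mean of at least 6 (an intensity of 64) in the higher group. This rule found 68 genes, 35 higher in lncKO and 33 lower, and the 12 largest of each direction are named. The rule used the skin values themselves, so those values are a description, and no gene among them passed the adjusted threshold.

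The largest differences upwards were in the major urinary proteins, small lipocalins that carry pheromones and are made in liver and in secretory glands. Mup2 lay at 2057, 6788 and 5271 in lncKO arrays 4, 5 and 6, against 571, 828 and 306 in miR-205 KO arrays 7, 8 and 9, and at 406, 1670 and 52 in wild-type arrays. The lowest lncKO array was above the highest miR-205 KO array, and the wild-type arrays spanned the miR-205 KO range and more. The log2 difference of Mup2 was 3.00 ± 0.45 (SE, n = 3 per group), or 7.98-fold, with an adjusted p of 0.289 in limma.

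Mup22, Mup19 and Mup9 had log2 differences of 3.09 ± 0.53, 2.82 ± 0.46 and 2.49 ± 0.47, and in each of them lncKO 4 was the lowest lncKO array and miR-205 KO 9 the lowest miR-205 KO array. Of the 9 Mup probe sets named, 4 had a mean of 6 or more in a group, and these were the 4 just given. Mup20, a dimmer member known as darcin, lay at 42, 63 and 42 in lncKO and 32, 20 and 18 in miR-205 KO. So 5 of the 9 were separated upwards, beside 3.6% of all probe sets. The family was looked at because the 4 bright ones met the naming rule, which required separation. The count is therefore a description and not a test of the family. Mup3, Mup5, Mup6 and Mup21 lay at 58 or lower on every one of the 6 arrays and their groups overlapped. They had log2 differences of 0.70, 0.04, 0.47 and 0.36.

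Mup genes are near copies of each other, and a probe set of one can read RNA of another, so the 4 bright probe sets cannot be counted as 4 independent genes. Probe sequences were not at hand, so cross-reading itself could not be checked. How close the gene copies are was read from their promoters, 250 bases before to 50 after the start, from RefSeq (GRCm38.p6). Most of these bases lie before the start, outside the RNA, so they do not settle what a probe set reads. Those of Mup2 (chr4:60139807-60140106, minus strand) and Mup19 (chr4:61782175-61782474, minus strand) were identical at 289 of 297 aligned positions (97.3%), and capitals mark their longest shared run of 121 bases. Mup3 (chr4:62087268-62087567, minus strand), a dim member, was identical to Mup2 at 218 of 284 (76.8%), and capitals in its line mark the longest run it shares with Mup2, 28 bases.
Mup2: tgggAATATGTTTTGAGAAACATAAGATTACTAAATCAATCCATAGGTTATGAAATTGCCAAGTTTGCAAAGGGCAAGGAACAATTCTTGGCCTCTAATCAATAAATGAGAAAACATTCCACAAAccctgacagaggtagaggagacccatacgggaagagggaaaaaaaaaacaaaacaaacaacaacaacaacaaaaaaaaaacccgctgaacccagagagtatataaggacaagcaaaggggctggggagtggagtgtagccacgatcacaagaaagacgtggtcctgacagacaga
Mup19: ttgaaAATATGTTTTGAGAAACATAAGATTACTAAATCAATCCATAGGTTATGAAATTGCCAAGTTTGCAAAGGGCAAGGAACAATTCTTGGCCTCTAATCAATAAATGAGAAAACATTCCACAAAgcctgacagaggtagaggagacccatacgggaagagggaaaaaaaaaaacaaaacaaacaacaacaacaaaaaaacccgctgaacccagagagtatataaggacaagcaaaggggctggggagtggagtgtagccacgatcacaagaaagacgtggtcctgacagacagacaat
Mup3: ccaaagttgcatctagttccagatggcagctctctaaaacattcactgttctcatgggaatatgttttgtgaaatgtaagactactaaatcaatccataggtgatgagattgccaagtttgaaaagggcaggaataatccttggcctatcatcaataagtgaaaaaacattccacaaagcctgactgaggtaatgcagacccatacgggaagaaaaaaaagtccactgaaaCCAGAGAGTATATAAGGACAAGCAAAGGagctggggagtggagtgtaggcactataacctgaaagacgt
Mup9 was as close, identical to Mup2 at 97.0% and to Mup19 at 98.0% of aligned positions, and Mup21, another dim member, was identical to Mup2 at 74.4%. Among the members compared, the bright ones were identical at 97.0% to 98.0% of positions and the dim ones were identical to Mup2 at 74.4% to 76.8%. The promoters of Mup22, which is bright, and of Mup20, Mup5 and Mup6 were not compared.

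Cyp2g1, a cytochrome P450 first known from olfactory mucosa, lay at 15911, 24234 and 108991 in lncKO, against 4007, 5881 and 4126 in miR-205 KO, and at 18951, 26405 and 7798 in wild type. All lncKO arrays exceeded all miR-205 KO arrays, lncKO 6 by far the most, and 2 of the 3 wild-type arrays lay within the lncKO range. Its log2 difference was 2.92 ± 0.55 (adjusted p = 0.47 in limma). Cyp2e1, the ethanol-oxidising cytochrome P450, lay at 160, 339 and 288 in lncKO and 69, 144 and 71 in miR-205 KO. Hsd3b3, of the 3-beta-hydroxysteroid dehydrogenase family, lay at 240, 229 and 287 in lncKO and 119, 106 and 163 in miR-205 KO. The log2 differences of Cyp2e1 and Hsd3b3 were 1.49 ± 0.35 and 0.98 ± 0.23.

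Pttg1, which encodes securin, the inhibitor of sister chromatid separation, lay at 1223, 1394 and 1113 in lncKO, against 471, 783 and 123 in miR-205 KO. Its log2 difference of 1.80 ± 0.52 rested in part on miR-205 KO 9, without which it was 1.03. Efcab7, a protein of the primary cilium that supports hedgehog signalling, lay at 1136, 583 and 769 in lncKO and 241, 207 and 330 in miR-205 KO, a log2 difference of 1.65 ± 0.28 (adjusted p = 0.304 in limma). The remaining named genes were Slc35f2, a membrane transporter, A2m, a protease inhibitor of plasma and matrix, and Grem1, a secreted antagonist of bone morphogenetic proteins, at 1.42, 1.02 and 0.99.

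Downwards, the largest difference and the smallest p of the whole comparison belonged to Ctse, which encodes cathepsin E, an aspartic protease of epithelial and immune cells. Ctse lay at 13, 27 and 17 in lncKO, against 86, 144 and 221 in miR-205 KO, and at 26, 41 and 12 in wild type. The lncKO arrays were at the bottom of the scale, with the wild-type arrays close to them, and the miR-205 KO arrays stood above both. The log2 difference was -2.95 ± 0.36, with a 95% interval of -3.73 to -2.16 and an adjusted p of 0.0827 in limma. Leaving out any 1 of the 6 arrays gave a difference between -3.30 and -2.62. Of 15 other settings, Ctse passed the threshold in 4 (adjusted p = 0.00279 to 0.0469 in limma) and not in 11, at adjusted p = 0.0796 to 1.0, among them the 6 that leave out 1 array, a floor at 16 and a pseudocount of 16.

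Tnnt2, cardiac troponin T, lay at 277, 215 and 255 in lncKO, against 533, 681 and 968 in miR-205 KO. Its log2 difference was -1.51 ± 0.26 (adjusted p = 0.304 in limma). Myf6, a transcription factor of muscle cells, lay lower as well, at 19, 38 and 42 in lncKO and 71, 52 and 85 in miR-205 KO. The 16 measured genes of the skeletal muscle list had a median difference of -0.04, with 0 members at an unadjusted p under 0.05. Fbln2, a fibulin of elastic matrix and basement membranes, lay at 132, 232 and 199 in lncKO and 456, 465 and 500 in miR-205 KO, a difference of -1.37 ± 0.25. Dio2, the deiodinase that activates thyroid hormone, had a difference of -1.19 ± 0.25. Tmem242 and Pcyox1 are described with their pituitary values.

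Tslp, S100a9, Ccl8 and Chil1 were also among the named genes downwards. Tslp, a cytokine that keratinocytes release to dendritic cells, lay at 23, 54 and 37 in lncKO and 79, 79 and 124 in miR-205 KO. S100a9, a subunit of calprotectin in neutrophils and stressed keratinocytes, lay at 181, 164 and 211 in lncKO and 407, 278 and 655 in miR-205 KO. Ccl8, a chemokine for monocytes and T cells, lay at 2745, 4328 and 2674 in lncKO and 6108, 7309 and 5914 in miR-205 KO. In all of these every lncKO array was below every miR-205 KO array, and the log2 differences were -1.36, -1.19 and -1.02. Chil1, a chitinase-like protein secreted by macrophages, stood at -0.96 ± 0.31.

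**Figure D2:**
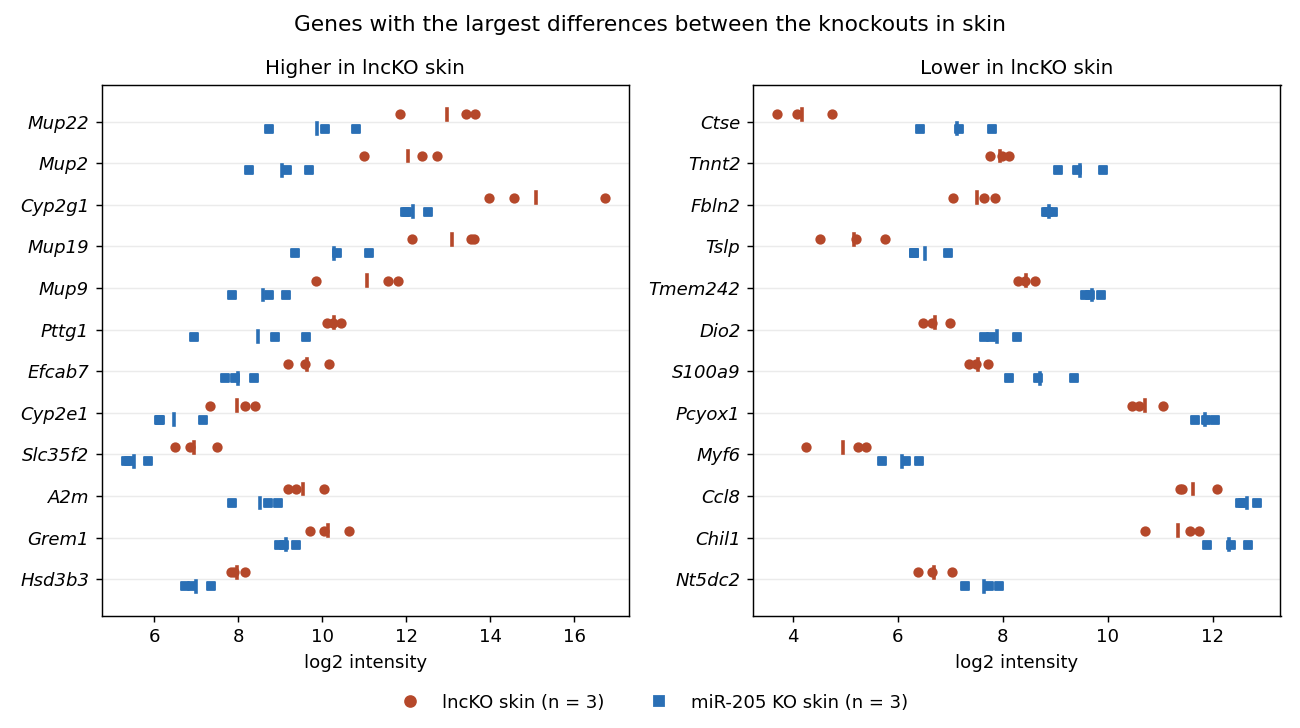
Log2 intensity (horizontal axis) on each lncKO skin array (red circles) and each miR-205 KO skin array (blue squares) for the 12 largest differences in each direction, with bars at the group means (n = 3 per group). The groups do not overlap in any row, as the naming rule required, and the spread within a group is widest in rows such as Mup2, Cyp2g1 and Pttg1.

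Pituitary arrays of the same genotypes share no array with skin and played no part in choosing the 68 genes, so they gave a second reading. The labels do not name separate mice, so they do not say whether the tissues come from the same ones. The pituitary arrays go against their labels, which are all female. Kdm5d lay at 216 to 279 and Uty at 1869 to 2339 on the 6 pituitary knockout arrays. On the 6 skin knockout arrays these genes stayed at 12 or lower. By these genes of the Y chromosome, the pituitary and skin arrays do not look like tissues of the same mice. Both pituitary groups had this feature, and the extraction text beside these arrays speaks of ear as well. In pituitary, 27 probe sets passed an adjusted p of 0.05 between lncKO and miR-205 KO (0.138% of those tested), 16 higher and 11 lower. Of the 68 genes chosen in skin, 38 had the same sign in pituitary, 13 were separated the same way and 8 the other way, against 15.9% of all probe sets separated in either direction. Among them 5 passed the adjusted threshold in pituitary, all with the sign they had in skin: Ctse, Pcyox1 and Tmem242 were lower in lncKO, and Dynlt1a and Dynlt1c higher. With any 1 of the 6 pituitary arrays left out, 0 of these 5 passed the threshold.

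Ctse lay at 9, 9 and 9 in lncKO pituitary, against 25, 31 and 40 in miR-205 KO pituitary, a log2 difference of -1.80 ± 0.20 (adjusted p = 0.0153 in limma). The direction was that of skin, again with the lncKO arrays at the bottom of the scale. Tmem242, a mitochondrial membrane protein, lay at 312, 394 and 344 in lncKO skin and 814, 763 and 938 in miR-205 KO skin. In pituitary it lay at 376, 401 and 368 in lncKO and 1081, 786 and 1115 in miR-205 KO. The differences were nearly the same in both tissues, -1.26 ± 0.21 in skin and -1.36 ± 0.19 in pituitary (adjusted p = 0.304 and 0.0379 in limma).

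Pcyox1, an enzyme that breaks down prenylated cysteines from lipid-anchored proteins, lay at 1403, 1558 and 2132 in lncKO skin and 4231, 3744 and 3258 in miR-205 KO skin. In pituitary it lay at 829, 850 and 1178 in lncKO and 2496, 3234 and 2456 in miR-205 KO. Its differences were -1.16 ± 0.23 and -1.53 ± 0.20 (adjusted p = 0.577 and 0.0343 in limma). The large Mup and Cyp2g1 differences had no counterpart in pituitary, where Mup2 lay at 8 to 12 on the 6 arrays, with a difference of 0.03 ± 0.19, and Cyp2g1 had one of 0.09 ± 0.18.

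Some genes below the threshold had the same sign in both tissues. Pttg1 lay at 2086, 2176 and 2512 in lncKO pituitary, against 687, 30 and 35 in miR-205 KO pituitary, a difference of 4.65 ± 0.95 (adjusted p = 0.101 in limma) with the same sign as in skin. In each tissue the miR-205 KO arrays differed widely among themselves and the lncKO arrays hardly at all. Chosen after their values were seen, Ide, the insulin-degrading enzyme, had differences of -0.82 ± 0.25 in skin and -0.83 ± 0.21 in pituitary, and Hpcal1, a neuronal calcium sensor, of 0.79 ± 0.24 and 0.91 ± 0.23. Bglap, the bone matrix protein osteocalcin, lay at 13853, 11218 and 12477 in lncKO skin and 8210, 7461 and 6651 in miR-205 KO skin. Its differences were 0.75 ± 0.21 in skin and 1.34 ± 0.24 in pituitary, where its intensities were 48 to 68 in lncKO and 16 to 28 in miR-205 KO.

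Read the other way, 19 of the 27 probe sets called in pituitary had the same sign in skin. An unadjusted p under 0.05 in skin was reached by 9, against 3.79% of all probe sets. The 9 include Dynlt1a, Dynlt1b, Dynlt1c and Dynlt1f, near-identical copies that may be a single signal read several times. Of these 9, 8 had the same sign: the 5 above, Dynlt1b, Dynlt1f and Col1a1, a chain of type I collagen. Col1a1 lay at 9581, 11557 and 9897 in lncKO skin and 7419, 8135 and 3802 in miR-205 KO skin, where miR-205 KO 9 stood apart. The exception in sign was Gpr52, an orphan receptor of the brain.

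**Figure D3:**
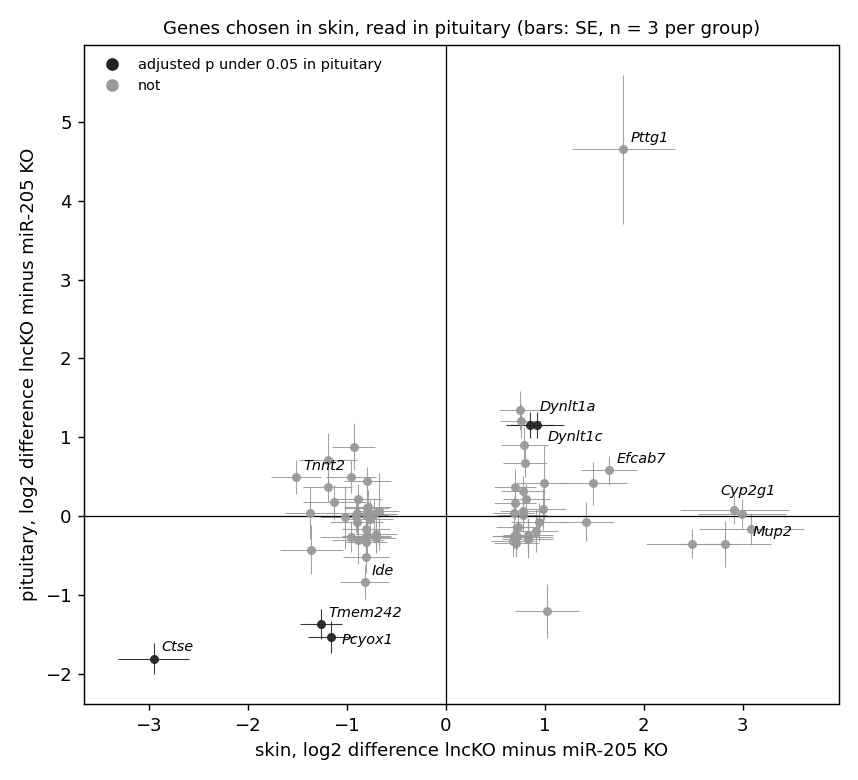
Log2 difference between lncKO and miR-205 KO in pituitary (vertical axis) against that in skin (horizontal axis) for the 68 genes chosen by their skin values, with SE bars (n = 3 per group); black points passed an adjusted p of 0.05 in pituitary. The 5 black points lie in the lower left and upper right, and the Mup and Cyp2g1 points at the right lie near 0 in pituitary.

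Dynlt1a and Dynlt1c belong to a stretch of chromosome 17 where near-identical copies of Dynlt1, a light chain of the motor protein dynein, alternate with copies of the membrane protein gene Tmem181. The stretch was looked at after its values were seen. Its 7 probe sets, Tmem181a, Dynlt1a, Dynlt1b, Tmem181b-ps, Dynlt1c, Tmem181c-ps and Dynlt1f, stand next to each other in the RefSeq order of genes. In skin all 7 were separated upwards (beside 3.6% of all probe sets), with log2 differences between 0.62 and 0.93, and in pituitary the differences ran between 0.32 and 1.504, with 4 of the 7 past the adjusted threshold (beside 0.138% of all probe sets). These 4 calls were lost with any 1 pituitary array left out and with a floor at 16. Dynlt1a, Tmem181b-ps, Dynlt1c and Tmem181c-ps met the naming rule, which required separation in skin. The count of separated copies in skin is therefore a description and not a test.

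Dynlt1a lay at 5097, 5916 and 4804 in lncKO skin and 3032, 3760 and 2134 in miR-205 KO skin. In pituitary it lay at 32715, 27157 and 29334 in lncKO and 14338, 12579 and 13138 in miR-205 KO. The lncKO arrays were higher without overlap in both tissues, by 0.86 ± 0.25 and 1.15 ± 0.17. Tmem181b-ps, a pseudogene copy, lay at 1704, 1993 and 2401 in lncKO skin and 1059, 1097 and 1315 in miR-205 KO skin. The difference of Dynlt1f in skin, 0.75 ± 0.29, was 0.42 without miR-205 KO 9.

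In skin the genes nearest to the stretch did not share this. Serac1, Gtf2h5 and Tulp4 on one side had skin differences of 0.07, 0.10 and -0.09, and Sytl3 on the other had 0.04, all with overlapping arrays. Beyond Sytl3, Ezr, which links membranes to actin, had a difference of -0.39 and Rsph3b, a protein of ciliary spokes, one of 0.41, both separated. Tmem242, with its opposite sign, lies on the same chromosome with 7 named probe sets between it and Tmem181a.

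As with Mup genes, a probe set of one copy can read another copy of the same gene. The Dynlt1 probe sets may therefore be a single signal read several times, and so may the Tmem181 probe sets. The promoters of Dynlt1c (chr17:6601529-6601828, plus strand) and Dynlt1f (chr17:6655890-6656189, minus strand) are shown because these copies differed in the same direction. Over the 192 positions that align, 189 were identical (98.4%), and capitals mark the longest shared run of 102 bases.
Dynlt1c: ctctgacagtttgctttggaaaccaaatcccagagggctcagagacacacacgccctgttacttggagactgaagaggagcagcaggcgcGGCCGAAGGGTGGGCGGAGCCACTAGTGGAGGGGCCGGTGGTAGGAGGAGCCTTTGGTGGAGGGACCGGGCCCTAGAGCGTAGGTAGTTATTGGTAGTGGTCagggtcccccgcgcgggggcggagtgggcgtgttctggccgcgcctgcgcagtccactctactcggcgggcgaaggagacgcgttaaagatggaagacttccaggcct
Dynlt1f: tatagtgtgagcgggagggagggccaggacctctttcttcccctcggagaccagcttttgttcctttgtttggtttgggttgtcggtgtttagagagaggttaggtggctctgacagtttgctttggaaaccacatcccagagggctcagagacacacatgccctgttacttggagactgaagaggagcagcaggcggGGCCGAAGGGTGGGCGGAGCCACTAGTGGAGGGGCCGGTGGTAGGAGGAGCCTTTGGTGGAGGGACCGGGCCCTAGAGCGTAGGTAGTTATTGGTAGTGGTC

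**Figure D4:**
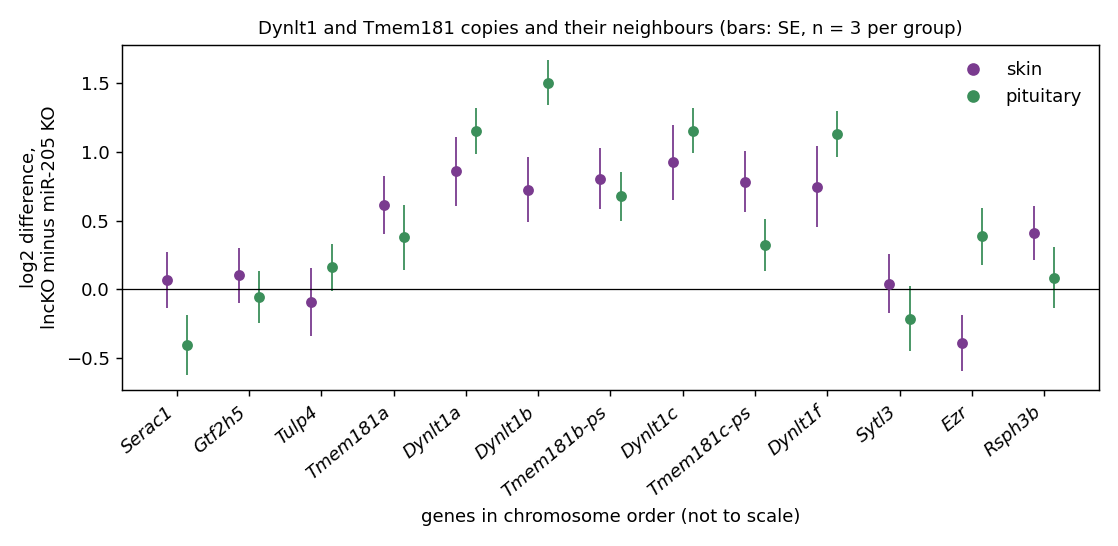
Log2 difference between lncKO and miR-205 KO (vertical axis, with SE bars, n = 3 per group) in skin and in pituitary for the 7 copies of Dynlt1 and Tmem181 and their neighbours, in chromosome order but not to scale. All 7 copies lie above 0 in both tissues, and the genes next to them on either side lie near 0 in skin.

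Published targets of miR-205 were read as a list, since in skin the comparison sets mice that lack the microRNA against mice that lack its host RNA. Of 16 targets 15 were measured, and their median log2 difference was 0.13, beside -0.0078 for all probe sets, with 9 higher in lncKO and 6 lower. An unadjusted p under 0.05 was reached by 2, both higher in lncKO, and by 0 in the other direction, beside 1.95% and 1.84% of all probe sets. For 12 of the 15 the 95% interval lay within 2-fold. Prkce, a protein kinase C, lay at 216, 261 and 314 in lncKO and 160, 182 and 108 in miR-205 KO, a difference of 0.83 ± 0.26 (adjusted p = 1.0 in limma). Phlda3, which competes with AKT for membrane lipids, lay at 93, 121 and 75 in lncKO and 61, 67 and 39 in miR-205 KO, a difference of 0.80 ± 0.27. In both, all lncKO arrays exceeded all miR-205 KO arrays.

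The target Zeb1, a repressor of epithelial genes, lay at 3561, 5327 and 4917 in lncKO and 4865, 4796 and 4878 in miR-205 KO. Its difference of -0.10 had a 95% interval of -0.59 to 0.40. The lipid phosphatase genes Inppl1 (SHIP2) and Inpp4b and the kinase gene Frk, described as targets in hair follicle progenitors, had differences of -0.28 ± 0.26, 0.13 ± 0.28 and 0.09 ± 0.33, all with overlapping arrays. E2f1, a cell cycle transcription factor, lay at 18, 62 and 48 in lncKO and 57, 54 and 70 in miR-205 KO, where lncKO 4 alone stood apart. Erbb3, a receptor of the epidermal growth factor family, had a difference of -0.17 ± 0.24.

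Among 10 measured negative regulators of PI3K and AKT signalling, 3 were higher in lncKO at an unadjusted p under 0.05 (1.95% of all probe sets) and 0 were lower (1.84%), while the list's median was -0.04. Besides Phlda3 these were Tsc1, the brake on mTOR, at 251, 278 and 330 in lncKO and 184, 230 and 144 in miR-205 KO, and Pik3ip1, a membrane inhibitor of PI3K, at 3014, 3606 and 2553 in lncKO and 2144, 1459 and 2376 in miR-205 KO. Their differences were 0.64 ± 0.24 and 0.63 ± 0.25. Tsc2, the partner of Tsc1, was at -0.31 ± 0.27 with overlapping arrays. Of 15 core members of the pathway 0 reached an unadjusted p under 0.05, and their differences ran between -0.29 and 0.34. The 10 measured genes of microRNA processing and silencing had a median of 0.01 and 0 members at that level.

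The 29 lists of cell types and processes, with 357 genes measured, held no member past the adjusted threshold, and 21 of them had a median between -0.2 and 0.2. In a bulk sample fewer cells of a type and less RNA per cell cannot be told apart. Basal keratinocytes had a median of 0.05 over 10 genes. Trp63, the master regulator of stratified epithelium, lay at 32914, 22849 and 24141 in lncKO and 22672, 27016 and 29197 in miR-205 KO, and Itga6, an anchor of hemidesmosomes, differed by 0.04 ± 0.25. In differentiated keratinocytes the median was -0.04 over 16 genes, and the interval lay within 2-fold for 15.

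The exception among differentiated keratinocyte genes was Krt1, the type II keratin of suprabasal cells, at 28295, 32398 and 46334 in lncKO and 67204, 69021 and 57179 in miR-205 KO. Its difference was -0.88 ± 0.24 (unadjusted p = 0.00352, adjusted p = 1.0 in limma). Krt10, its partner in the filament, lay at 678979, 619688 and 654575 in lncKO and 621186, 620055 and 753341 in miR-205 KO, with overlapping arrays and a difference of -0.03 ± 0.21. Wild-type skin had Krt1 at 126241, 27164 and 15850, a spread wider than the distance between the knockouts. Loricrin (Lor), Tgm1 and Dsg1a, of the cornified envelope and its junctions, had differences of -0.06, -0.26 and 0.04.

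In the hair follicle, 21 genes of hair shaft and inner root sheath had a median of 0.11, with 15 of them at a mean log2 under 5. At an unadjusted p under 0.05, 2 were higher in lncKO, beside 1.95% of all probe sets. These were the hair keratin Krt31 and the keratin-associated Krtap11-1, at intensities of 24 or lower on every array. Tchh, the protein of the inner root sheath, lay at 65, 179 and 55 in lncKO and 99, 112 and 229 in miR-205 KO. Lef1, the transcription factor of the hair matrix that relays Wnt signals, lay at 24, 27 and 38 in lncKO and 49, 51 and 48 in miR-205 KO, without overlap. Its difference was -0.76 ± 0.23 (unadjusted p = 0.00683 in limma). Of the 15 measured Wnt and hair matrix genes it was the sole one at an unadjusted p under 0.05, beside 3.79% of all probe sets. Genes of follicle stem cells had a median of -0.30 over 9 genes, with 0 at that level.

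Macrophage and Langerhans cell genes had the lowest median of the 29 lists, -0.35 over 13 genes, with 11 lower in lncKO. Their mean log2 level was 11.03, 11.23 and 10.99 in lncKO arrays, and 11.39, 11.68 and 11.04 in miR-205 KO arrays, so the groups overlapped. The members C1qb, a chain of complement C1q, at -0.55 ± 0.23, and H2-Aa, a class II antigen presenting molecule, at -0.59 ± 0.26, reached an unadjusted p under 0.05. At that level 1.84% of all probe sets were lower in lncKO. Cd207, the langerin of Langerhans cells, stood at 0.54 ± 0.38, opposite to the list.

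Neutrophil genes had a median of -0.20 over 8 genes, 5 of them at a mean under 5, and 3 were lower at an unadjusted p under 0.05, beside 1.84% of all probe sets: S100a9, its partner S100a8 at -0.69 ± 0.29, and Ngp. Among 15 interferon-stimulated genes 3 were lower at that level, Rtp4, Mx1 and Bst2, and 0 higher, beside 1.84% and 1.95% of all probe sets, with a median of -0.19. Rtp4 lay at 102, 127 and 93 in lncKO and 190, 185 and 184 in miR-205 KO, and the antiviral GTPase Mx1 at 36, 39 and 43 in lncKO and 54, 69 and 54 in miR-205 KO. The differences of Rtp4, Mx1 and the viral tether Bst2 were -0.81, -0.58 and -0.57. T cell genes had a median of -0.12 over 8 genes, mast cell genes of 0.01 over 7 and red blood cell genes of -0.22 over 3.

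In the dermis, 13 fibroblast and matrix genes had a median of 0.00, with 2 higher in lncKO at an unadjusted p under 0.05, beside 1.95% of all probe sets. These were Col1a1, at 0.75 ± 0.29, and Eln, elastin, at 0.62 ± 0.23. Endothelial and Schwann cell genes had medians of 0.01 over 10 genes and -0.06 over 7, and melanocyte genes of -0.26 over 10, with 0 at an unadjusted p under 0.05 in each. Adipocyte genes had a median of 0.02 over 10 genes, and Lep, the hormone leptin, lay at 1646, 1938 and 1907 in lncKO and 838, 1964 and 3117 in miR-205 KO. Cartilage genes had a median of 0.08 over 14 genes, and 2 were higher in lncKO at an unadjusted p under 0.05, beside 1.95% of all probe sets. These were the collagen chain Col9a3 at 0.62 ± 0.28 and the matrilin Matn3 at 0.49 ± 0.22. Sebaceous gland genes had the highest median, 0.24 over 13 genes with 12 higher in lncKO and 0 at an unadjusted p under 0.05. The sebaceous enzyme gene Scd3 varied more within groups than between them, at 74498, 44442 and 19617 in lncKO and 61748, 8746 and 50928 in miR-205 KO.

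Of processes, immediate early genes had a median of -0.29 over 17 genes with 0 at an unadjusted p under 0.05. Egr1, a transcription factor induced within minutes of a stimulus, lay at 921, 1059 and 1697 in lncKO and 1925, 6536 and 1222 in miR-205 KO, where miR-205 KO 8 stood apart. Among 20 cell cycle genes Mcm6, a subunit of the replication helicase, was the sole one at that level, at 0.87 ± 0.29. Over all probe sets 3.79% reached that level in either direction. Heat shock and cholesterol synthesis genes had medians of -0.11 over 12 genes and -0.12 over 15, with 0 at that level. The 17 circadian clock genes had a median of 0.23, with 0 at that level.

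**Figure D5:**
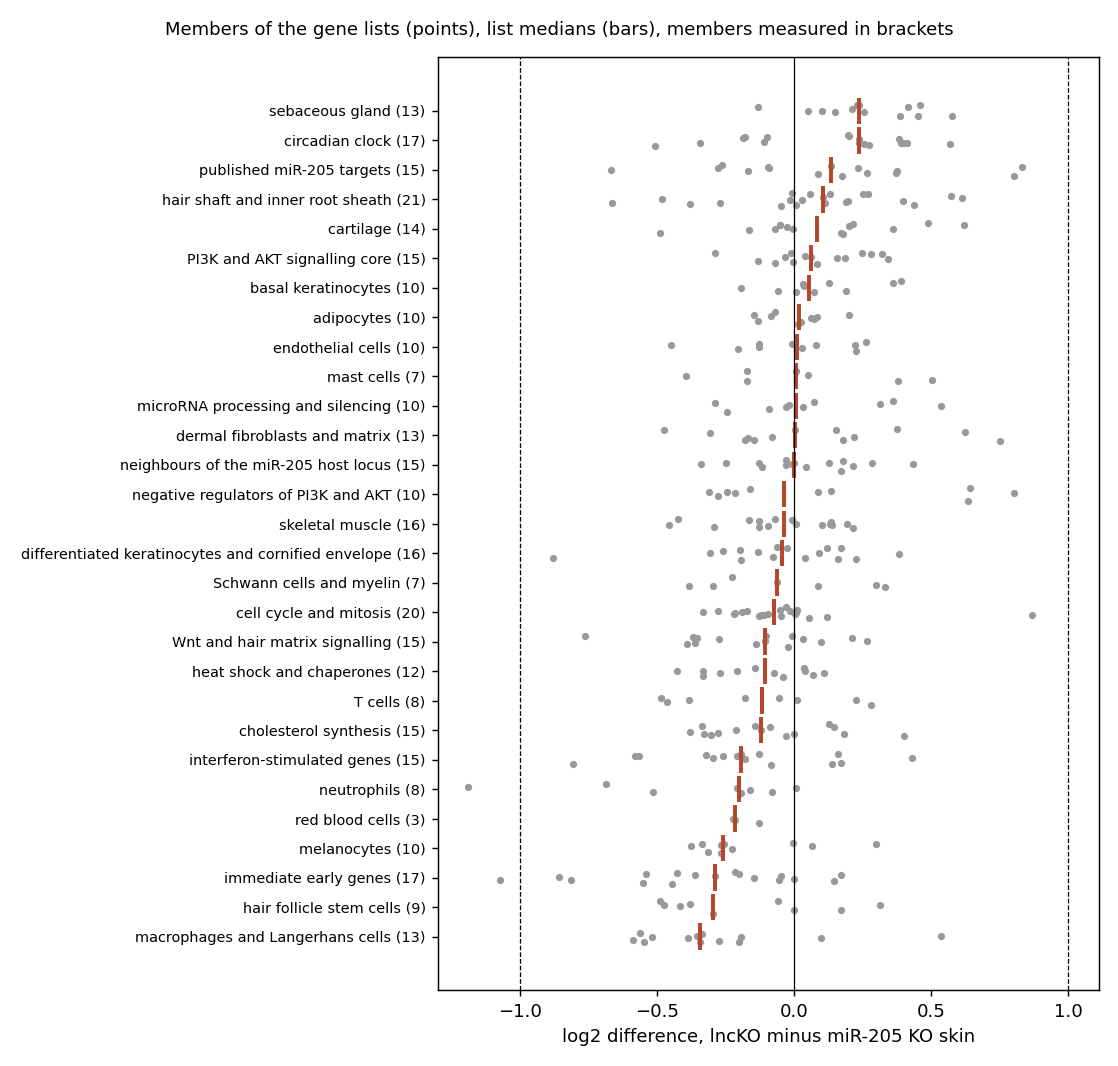
Log2 difference between lncKO and miR-205 KO skin (horizontal axis) for each measured member of the 29 gene lists (grey points), with list medians as red bars and the number measured in brackets. List medians lie between -0.35 and 0.24, and few members reach the dashed lines at 2-fold.

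Genes around the miR-205 host locus differed little between the knockouts. Of the 15 measured neighbours 0 reached an unadjusted p under 0.05, the median was 0.00, and the interval lay within 2-fold for all 15. Plxna2, a semaphorin receptor, had the smallest p, with a difference of 0.43 ± 0.26, and G0s2, an inhibitor of fat breakdown, lay at 1026, 1940 and 708 in lncKO and 1148, 1034 and 1086 in miR-205 KO.

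Whether the difference between the knockouts was itself different in skin and pituitary was tested as an interaction over all 18 arrays. It passed an adjusted p of 0.05 for 2 probe sets (0.0102% of those tested), Tnnt2 and Gpr52, whose values are given with the results marked for a closer look. Ctse, Tmem242 and Pcyox1 were chosen in skin and passed in pituitary, and for them the difference between tissues did not pass. It was -1.14 ± 0.52 for Ctse, 0.10 ± 0.30 for Tmem242 and 0.37 ± 0.36 for Pcyox1 (adjusted p = 0.711, 0.985 and 0.916 in limma). For Mup2 and Cyp2g1 it was 2.97 ± 1.06 and 2.83 ± 0.69 (adjusted p = 0.543 and 0.247 in limma). Their restriction to skin was therefore not shown by this test. Kdm5d and Uty were high on the pituitary knockout arrays and low on those of skin, so this feature cannot be told apart from tissue here.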

How the data were processed

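RNA of skin and pituitary was measured on Affymetrix Clariom S mouse arrays, per the labels' protocols after amplification and biotin labelling of cDNA. The authors deposited 1 table of intensities per probe set and array, linear whole numbers between 4 and 1243875. How they were background-corrected, summarised and normalized is not given in the sources used here, and the table holds no detection calls. The deposited intensities were transformed to log2 with no pseudocount and not normalized again. Of 22206 probe sets, 19572 carry 1 gene symbol in the platform annotation, 2634 have none and 0 have several; all 19572 matched the RefSeq gene table (GRCm38.p6) by gene ID and stand for 19505 genes. A gene with several probe sets was read from the brightest in the gene lists.

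Differences, lncKO minus miR-205 KO, were fitted with limma 3.58.1 in R 4.3.3 (lmFit and eBayes, two-sided) on the 6 arrays alone, with p-values adjusted by Benjamini-Hochberg over those 19572 and a threshold of 0.05. Each adjusted p is limma's, and each error beside a log2 difference its standard error. The exact permutation test of 3 against 3 arrays cannot go below 0.1, so it was not used. Pituitary knockouts were fitted in the same way, an addition made after seeing the data, and the interaction used all 18 arrays. The code was tested on simulated data. Genes named were the 12 largest differences in each direction at an unadjusted p under 0.01, without overlap and with a mean log2 of 6 or more, leaving out predicted genes and chemosensory receptors; up to 3 members per list with the smallest p; and a chosen set of epidermal, follicle and target genes. The members and lists were chosen with earlier results of these data known. Alternatives were other array sets, normalizations, a floor and a pseudocount of 16, a filter, a variance trend and leaving out each array. Promoters were aligned with Biopython 1.88, and sequences are from RefSeq. The number of arrays limits the precision.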

Additional observations from a re-analysis of the deposited data

Results flagged for a closer look

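The difference between lncKO and miR-205 KO itself differed between skin and pituitary, in limma's interaction test over 18 arrays, for Tnnt2 and Gpr52 (adjusted p = 0.0413 each). For Tnnt2, cardiac troponin T, skin minus pituitary was -2.0046 on the log2 scale: it lay at 277, 215 and 255 in lncKO skin and 533, 681 and 968 in miR-205 KO skin, and at 15, 11 and 13 in lncKO pituitary and 8, 12 and 8 in miR-205 KO pituitary. The pituitary intensities are near the bottom of the scale, where a floor at 16 gives -1.51.

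For Gpr52, an orphan receptor of the brain, skin minus pituitary was 2.71. It lay at 136, 51 and 92 in lncKO skin and 52, 51 and 46 in miR-205 KO skin, where the groups overlapped and the difference of 0.80 became 0.47 without lncKO 4. In pituitary it lay at 105, 126 and 88 in lncKO and 380, 516 and 318 in miR-205 KO, without overlap. The 2 calls were lost after quantile normalization, and leaving out 1 skin array gave 0 to 4 calls. For both genes tissue cannot be told apart from the high Kdm5d and Uty of the pituitary arrays.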

How the results depend on the processing

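No paired analysis was possible because no replicate number recurs between groups. Of the 6 skin arrays, leaving out each in turn left 0 probe sets past an adjusted p of 0.05. The count was 6 with all 18 arrays in the fit (Ctse, Tnnt2, Efcab7, Cyp2g1, Dio2 and Tmem242, adjusted p = 0.00279 to 0.0307 in limma) and 1, Ctse, with median centring, with a filter at a mean log2 of at least 5, which tests fewer probe sets, and with a variance trend with robust estimation (adjusted p = 0.0244, 0.0469 and 0.0352). The cause was not tested. Under that filter 221 higher and 218 lower probe sets were at an unadjusted p under 0.05. Leaving out 1 array gave 281 to 569 higher and 291 to 601 lower at that level, and 1297 to 1845 higher and 1377 to 1967 lower without overlap, as fewer arrays overlap less often. The interaction had 0 calls after quantile normalization, 20 with a floor at 16, 7 with a pseudocount of 16, 1 with the variance trend and 0 to 4 without 1 array. Of the genes chosen in skin, 5 passed in pituitary, but 0 with a floor at 16, 8 with the variance trend and 0 to 1 without 1 pituitary array (0 of the same 5; the 1 was Pttg1), alternatives chosen after seeing the data. Over 1265 values of 85 named genes in 15 settings, 9 gained a call, and none could lose one, since none was called on the 6 arrays. The sign of 19 of the 85 changed in some setting, of which Scd3 ran between -0.48 and 0.93 and Zeb1 between -0.21 and 0.08 with 1 array left out, while 0 of the 24 largest differences changed sign. Among the genes followed, without miR-205 KO 9 the differences of Pttg1 and Dynlt1f were 1.03 and 0.42, and without lncKO 4 that of Gpr52 was 0.47. Col1a1 was not followed with 1 array left out. Intensities at or below 16 limit what can be said of dim genes such as Ctse in lncKO skin.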

Other observations

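The 68 genes chosen in skin by size and separation were spread over all autosomes, with 0 on the X or Y chromosome. Chromosome 17 held 9 of them (13.2%), beside 4.94% of all named genes, and 4 of the 9 were the Dynlt1 and Tmem181 copies Dynlt1a, Tmem181b-ps, Dynlt1c and Tmem181c-ps. Tmem242, on the same chromosome, went the other way. Chromosome 1, which holds the miR-205 locus, had 3 of the 68 (4.41%, beside 5.56% of all named genes), and all 3, Ctse, Chil1 and Tnnt2, were lower in lncKO. These counts were made after the values were seen and were not tested.

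Cyp2a5, a cytochrome P450 that lies beside Cyp2g1 and was too dim for the naming rule, had a log2 difference of 1.05 ± 0.28 with separated arrays. Calml4, a calmodulin-like protein chosen after its values were seen, lay at 16, 16 and 18 in lncKO and 30, 61 and 80 in miR-205 KO.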
